A study of Mus musculus with 8 samples.

Results

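The let-7 family guide strands are the 9 mature miRNAs mmu-let-7a-5p, mmu-let-7b-5p, mmu-let-7c-5p, mmu-let-7d-5p, mmu-let-7e-5p, mmu-let-7f-5p, mmu-let-7g-5p, mmu-let-7i-5p and mmu-miR-98-5p. They were taken by name from a table of 1978 mature mouse miRNA names and were followed through all 8 small RNA libraries of the series. All 9 passed the filter on low counts, which left 382 names for testing. Below, the members are written without the prefix mmu- and the ending -5p.

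Each library came from spleen CD8+ T cells, sorted by flow cytometry on CD8, CD4, CD44 and CD122 after magnetic enrichment, and 10000 sorted cells were lysed for RNA. Inserts of about 18 to 35 bases were selected. The 4 groups of 2 libraries were mCre MP, WT MP, mCre TN and WT TN, where the first word is the genotype and the second the sorted subset. The design text writes VM where the titles write MP; these names usually stand for memory-phenotype and virtual memory cells, and TN for true naive cells, but the labels do not spell them out. The series title ties the mCre mice to miR-29 and to Cre, a recombinase that deletes marked DNA. The labels do not name the deleted sequence, the promoter that drives Cre, the strain or the age of the mice, and the protocol covers adult and neonatal spleens together. The labels do not say whether replicate libraries are from different mice, so every p measures the spread between libraries, which may be technical.

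A let-7 hairpin is cut by Drosha and Dicer, and its guide strand is loaded onto an Argonaute protein, where the seed pairs with target mRNAs and lowers their output. The RNA-binding protein Lin28 blocks the cutting of let-7 precursors in embryonic and tumour cells, so mature let-7 is a mark of differentiated cells. In mouse CD8+ T cells let-7 is known to be abundant in naive cells and to fall after stimulation through the T cell receptor, and Myc, the driver of growth and glycolysis, is among its known targets.

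The 9 sequences are shown because they decide how far reads of one member can be told from reads of another. They are the mature forms of RefSeq (GRCm38.p6), 5′ to 3′, with the seed, bases 2 to 8, in capitals.
let-7a: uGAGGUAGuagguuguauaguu
let-7c: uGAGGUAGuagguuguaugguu
let-7b: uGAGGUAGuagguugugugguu
let-7e: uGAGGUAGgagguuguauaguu
let-7f: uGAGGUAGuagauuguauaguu
let-7d: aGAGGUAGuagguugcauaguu
miR-98: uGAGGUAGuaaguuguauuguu
let-7g: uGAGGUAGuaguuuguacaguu
let-7i: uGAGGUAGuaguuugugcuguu

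All 9 guides were 22 bases long and carried the same seed, GAGGUAG. Counted from 1 at the 5′ end and with let-7a first, let-7c differed from let-7a by A19G alone, let-7e by U9G alone and let-7f by G12A alone. let-7b carried A17G and A19G, let-7d U1A and U16C, and miR-98 G11A and A19U. let-7g carried G12U and U18C, and let-7i carried the same changes together with A17G and A19U. let-7b and let-7c thus differed from each other by A17G alone. Neighbours that differ at 1 base can exchange reads through sequencing error or loose matching. The split between let-7a, let-7b, let-7c, let-7e and let-7f is therefore less certain than their sum.

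The guides come from 12 hairpins (GRCm38 coordinates, GENCODE M21). Mirlet7a-1 (chr13:48538179-48538272), Mirlet7f-1 (chr13:48537829-48537917) and Mirlet7d (chr13:48536012-48536114) lie on the minus strand within 2261 bases, in exons of the long noncoding gene 6720427I07Rik. Mirlet7c-2 (chr15:85706603-85706697) and Mirlet7b (chr15:85707319-85707403) lie on the plus strand within 801 bases, in exons of the noncoding gene Lncppara. Mirlet7f-2 (chrX:151912346-151912428) and Mir98 (chrX:151913214-151913321) share introns of Huwe1 on the plus strand and span 976 bases. Mirlet7a-2 (chr9:41536716-41536811, plus strand) lies in an intron of 3110039I08Rik and of Gm49317. Mirlet7c-1 (chr16:77599657-77599750, plus strand) lies in an intron of Mir99ahg. Mirlet7e (chr17:17830352-17830444, plus strand) lies in an intron of Spaca6, Mirlet7g (chr9:106178840-106178927, plus strand) in an intron of Wdr82, and Mirlet7i (chr10:122985640-122985724, minus strand) in an exon of D630033A02Rik. let-7a, let-7c and let-7f each had 2 hairpins and 2 rows in the table. The rows of a pair held nearly equal values, for let-7a 50.08% to 50.11% of the pair in the larger one, so these values do not show which hairpin was used.

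The libraries held 2140365 and 3061363 counts for mCre MP, 3295379 and 3920356 for WT MP, 5230975 and 2921824 for mCre TN, and 3024878 and 1936597 for WT TN. All 5 lymphocyte markers, among them miR-150-5p, were detected in every library, and their summed level ran from 40580 to 178600 CPM. CPM of single miRNAs are counts brought to a common library total with TMM factors, while these sums over a list are unscaled. Both myeloid markers summed to between 1.40 and 13.7 CPM, the 3 erythroid ones to at most 10.01, the 5 endothelial and stromal ones to between 22.2 and 109.9, the 6 epithelial ones, mostly the miR-200 family, to between 724.5 and 3062, and the 3 liver and muscle ones to between 10.5 and 38.8. miR-29a, miR-29b and miR-29c together, the miRNAs of the series title, took 0.0774% and 0.132% of the counts in mCre MP against 0.367% and 1.14% in WT MP. In TN they took 0.169% and 1.59% in mCre against 0.354% and 0.0770% in WT. Between the libraries labelled mCre TN replicate 2 and WT TN replicate 2 the order of the genotypes was thus the reverse of that in MP. Whether their labels are right was not tested. The tests that draw on these libraries were also run without both. Those runs keep replicate 1 alone in each TN group, which is assumed to vary like the MP groups.

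let-7 guides made up between 42.6% and 68.7% of all miRNA counts in a library. The family took 63.2% and 59.5% of the counts in mCre MP against 42.6% and 45.6% in WT MP, which did not overlap. It took 51.2% and 43.9% in mCre TN against 50.6% and 68.7% in WT TN, which overlapped. The means were 61.4% ± 2.64 in mCre MP, 44.1% ± 2.15 in WT MP, 47.6% ± 5.196 in mCre TN and 59.6% ± 12.8 in WT TN (SD, n = 2 each). The 95% Wilson intervals of the single libraries were at most 0.065 percentage points to either side, so counting error is far smaller than the gap between replicates. Intervals cover counting error only. The highest share, 68.7%, came from the library labelled WT TN replicate 2. A share of counts is relative to all other miRNAs, and in RNA from sorted cells in bulk, fewer cells of a type and less RNA per cell cannot be told apart.

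**Figure D1:**
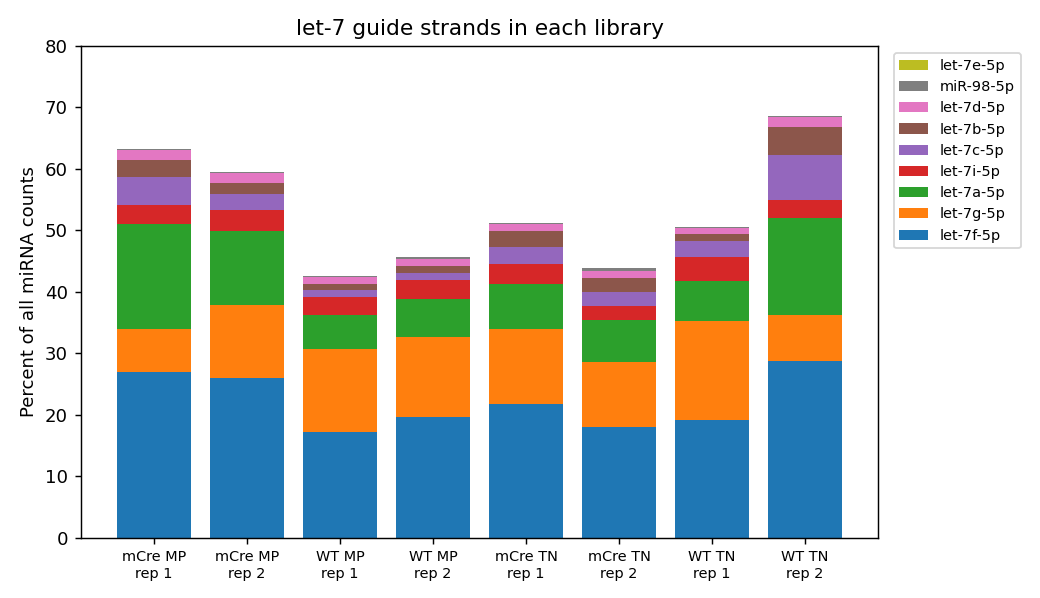
Share of all miRNA counts taken by each let-7 guide strand (percent, stacked) in each of the 8 libraries; rep stands for replicate. The whole bar is the family share, which reaches 63.2% and 59.5% in mCre MP and 68.7% in WT TN replicate 2 and lies between 42.6% and 51.2% in the other 5 libraries.

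The 3 libraries with the highest family share, both of mCre MP and WT TN replicate 2, were also the 3 with the fewest miRNA names detected. They had 416, 514 and 478 names above 0, against 532 to 648 in the other 5. Their summed lymphocyte markers were the 3 lowest as well. They had 40580 and 64300 CPM in mCre MP and 47540 CPM in WT TN replicate 2, against 81490 to 178600 CPM in the others. These unscaled sums are parts of the same counts as the family share, so a high family share leaves less room for them. The sums were carried by miR-150-5p, at 3.84% and 6.09% of all counts in mCre MP and 4.22% in WT TN replicate 2. In the other 5 libraries it took 6.16% to 15.2%. miR-181a-5p did not follow, with 6242 counts in WT TN replicate 2 against 2346 and 4510 counts in WT MP. By total counts the 3 libraries stood at places 1, 2 and 5 from the lowest. The part of depth and of the number of names detected in the family share was not tested.

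**Figure D2:**
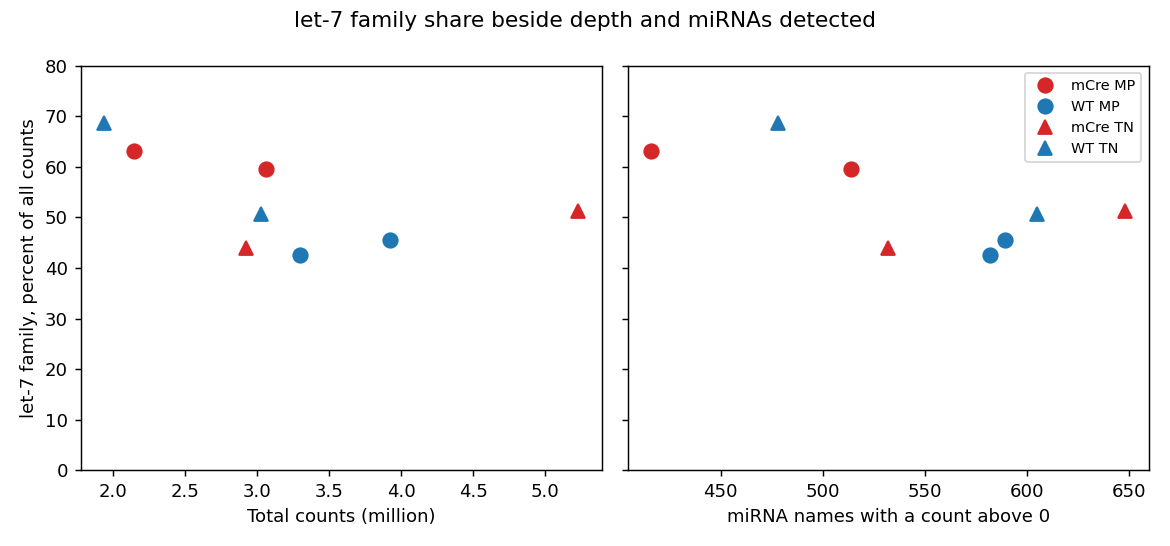
Family share of all miRNA counts (percent) against the total counts of the library (left) and against the number of miRNA names above 0 (right), 1 point per library, red for mCre, blue for WT, circles for MP and triangles for TN. The 3 points at or above 59.5% have the 3 lowest numbers of names, 416, 478 and 514.

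With its 2 rows summed, let-7f, from 2 hairpins on chromosomes 13 and X, was the most abundant miRNA in all 8 libraries. It kept a nearly fixed part of the family. It made up 42.7% and 43.7% of the family in mCre MP against 40.6% and 43.0% in WT MP, and 42.5% and 41.0% in mCre TN against 38.0% and 41.8% in WT TN. Its highest part of the family was thus 1.15 times its lowest. let-7d, from the same chromosome 13 cluster as a let-7f hairpin, held a small part with a narrow range. It made up 2.62% and 2.70% of the family in mCre MP against 2.64% and 2.65% in WT MP, and 2.35% and 2.91% in mCre TN against 2.08% and 2.41% in WT TN.

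let-7g, a single-copy member in an intron of Wdr82, varied most of the 3 abundant guides in its part of the family. It made up 10.96% and 19.8% of the family in mCre MP against 31.4% and 28.5% in WT MP, and 23.8% and 24.4% in mCre TN against 31.7% and 10.9% in WT TN. Its highest part was 2.92 times its lowest, against 2.09 times for let-7a. In CPM the order was the other way, with a highest value 1.79 times the lowest for let-7g and 3.89 times for let-7a. let-7a was high where let-7g was low. It made up 27.1% and 20.2% of the family in mCre MP against 13.2% and 13.7% in WT MP, and 14.1% and 15.3% in mCre TN against 13.0% and 23.1% in WT TN. The ratio of let-7g to let-7a was 0.405 and 0.980 in mCre MP and 0.471 in WT TN replicate 2, and lay between 1.59 and 2.45 in the other 5 libraries. With the rows of a name summed, let-7a therefore outnumbered let-7g in the same 3 libraries that had the highest family share. Parts of one whole are tied to each other, so a high part of one member lowers the parts of the others.

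**Figure D3:**
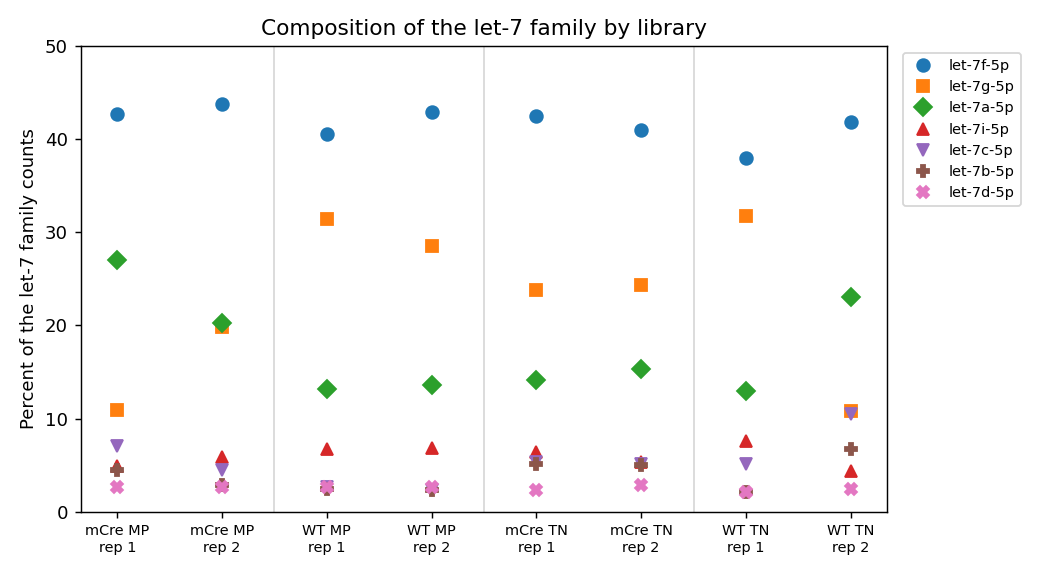
Part of the let-7 family counts (percent, rows of a name summed) held by each of the 7 more abundant guides in each library. In the labels rep stands for replicate. let-7f stays between 38.0% and 43.7%, while let-7g ranges from 10.9% to 31.7% and let-7a from 13.0% to 27.1%, and the order of let-7g and let-7a is turned in mCre MP replicates 1 and 2 and WT TN replicate 2.

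let-7b and let-7c, which share the chromosome 15 cluster, had, like let-7a, a larger part of the family in both mCre MP than in both WT MP libraries. let-7c made up 7.05% and 4.50% of the family in mCre MP against 2.70% and 2.37% in WT MP, and 5.39% and 5.09% in mCre TN against 5.14% and 10.5% in WT TN. let-7b made up 4.46% and 2.89% in mCre MP against 2.43% and 2.36% in WT MP, and 5.08% and 5.02% in mCre TN against 2.14% and 6.79% in WT TN. Both were at their highest in WT TN replicate 2, and let-7b was higher in mCre TN than in mCre MP. let-7i, which shares the changes G12U and U18C with let-7g, had a smaller part in both mCre MP than in both WT MP libraries and its smallest in WT TN replicate 2. It made up 4.90% and 5.86% in mCre MP against 6.75% and 6.87% in WT MP, and 6.40% and 5.39% in mCre TN against 7.60% and 4.37% in WT TN. Grouped after the values were seen, let-7g with let-7i made up 15.9% and 25.7% of the family in mCre MP and 15.2% in WT TN replicate 2, against 29.8% to 39.3% in the other 5 libraries. let-7a, let-7b, let-7c and let-7e together made up 38.6%, 27.7% and 40.4% in those 3 libraries, against 18.3% to 25.5% in the other 5.

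The ratio of let-7b to let-7c, which have hairpins in the same cluster, was 0.633 and 0.642 in mCre MP against 0.902 and 0.994 in WT MP. In TN this ratio was 0.943 and 0.986 in mCre against 0.417 and 0.648 in WT. Both WT TN libraries thus shared a low ratio, including replicate 1. In replicate 1 the ratio of let-7g to let-7a was, at 2.45, close to the 2.39 and 2.09 of WT MP. let-7b and let-7c differ at 1 base, so exchanged reads can affect their ratio. miR-98 and let-7e were minor members. miR-98 made up 0.156% and 0.233% of the family in mCre MP against 0.318% and 0.583% in WT MP, and 0.300% and 0.901% in mCre TN against 0.298% and 0.164% in WT TN. let-7e stayed between 0.0296% and 0.0645%.

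The guides were ordered by their mean share of all counts over the 8 libraries, with the rows of a name summed. They ran let-7f, let-7g, let-7a, let-7i, let-7c, let-7b, let-7d, miR-98 and let-7e. The shares of let-7f (17.3% to 28.7%) lay above all shares of let-7g (6.93% to 16.0%), those of let-7a (5.60% to 17.1%) above all of let-7i (2.37% to 3.84%), those of let-7d (1.05% to 1.66%) above all of miR-98 (0.0983% to 0.395%), and those of miR-98 above all of let-7e (0.0135% to 0.0443%). The ranges of let-7g and let-7a overlapped, with let-7g higher in 5 of 8 libraries, and so did those of let-7i and let-7c, with let-7i higher in 6 of 8. The ranges of let-7c and let-7b overlapped although let-7c was higher in 8 of 8 libraries, and those of let-7b and let-7d overlapped with let-7b higher in 6 of 8. Mature miRNAs here had the same length, so the order needs no length correction, but ligation and amplification can favour one sequence over another and such a bias was not measured.

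mCre cells were compared with WT cells within MP, which asks whether the genotype tied to miR-29 altered other miRNAs of this subset. For 7 of the 9 guides the lower mCre MP value was above the higher WT MP value, and for let-7g and miR-98 the groups overlapped; of all tested miRNAs 64.7% lacked overlap and 27.2% did so with mCre higher. let-7c had 50511 and 31938 CPM in mCre MP against 10241 and 11556 CPM in WT MP. let-7a had 194019 and 143461 CPM in mCre MP against 49911 and 66545 CPM in WT MP, and let-7e 433 and 358 CPM in mCre MP against 125 and 144 CPM in WT MP. These 3 had the largest differences on the log2 scale, and in CPM their replicates lay closer to each other than to the other genotype.

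Tested with edgeR (quasi-likelihood F test, p adjusted by Benjamini-Hochberg over all 382 miRNAs), let-7c differed by 1.92 ± 0.62 on the log2 scale between mCre MP and WT MP, let-7a by 1.54 ± 0.54 and let-7e by 1.56 ± 0.54 (SE, adjusted p = 0.411 for each). let-7b, at 31978 and 20499 CPM in mCre MP against 9233 and 11488 CPM in WT MP, differed by 1.34 ± 0.73 (adjusted p = 0.446 by edgeR). let-7f, at 306338 and 310359.9 CPM in mCre MP against 153809.5 and 209455 CPM in WT MP, differed by 0.76 ± 0.39 (adjusted p = 0.420 by edgeR). let-7d, at 18788 and 19163 CPM in mCre MP against 10019 and 12925 CPM in WT MP, differed by 0.73 ± 0.47 (adjusted p = 0.472 by edgeR). None of these guides passed the threshold of an adjusted p under 0.05.

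let-7i had 35088 and 41578 CPM in mCre MP against 25582 and 33506 CPM in WT MP, a difference of 0.38 ± 0.36 on the log2 scale. let-7g had 78568 and 140560.2 CPM in mCre MP against 119126 and 139096 CPM in WT MP, a difference of −0.24 ± 0.40. miR-98 had 1115 and 1649.7 CPM in mCre MP against 1207 and 2844 CPM in WT MP, a difference of −0.55 ± 0.69. The edgeR adjusted p of these 3 guides ran from 0.644 to 0.796, and the mCre libraries of let-7g lay on both sides of the WT values.

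In this comparison edgeR called 0 of the 9 guides and 0 of the 382 miRNAs (0%), and DESeq2 likewise called 0 of 9 and 0 of 382. At an unadjusted p under 0.05, edgeR had 3 of the 9 guides, let-7a, let-7c and let-7e, against 10.7% of all miRNAs. The median log2 difference was 0.76 over the 9 guides and −0.23 over all 382, and 7 of 9 guides were above 0. With total count scaling the median over all miRNAs moved to −0.48, and 7 of 9 guides stayed above 0.

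The spread and the scaling factors that this test uses come from all 4 groups and so from the TN libraries too. Leaving out both TN replicate 2 libraries keeps replicate 1 alone in each TN group. The spread then comes from the MP pairs only, and the lone TN libraries are assumed to vary like them. Without both TN replicate 2 libraries, edgeR called 4 of the 9 guides higher in mCre MP, against 10.2% of all miRNAs. let-7a then differed by 1.73 ± 0.30, let-7b by 1.53 ± 0.33, let-7c by 2.11 ± 0.33 and let-7e by 1.74 ± 0.32 in log2 units (SE; adjusted p = 0.0362 by edgeR for each). The MP counts themselves are the same in both fits, and over all alternatives tried the adjusted p of the guides in this comparison ran from 0.0362 to 1. mCre MP differed from WT MP also in names detected, 416 and 514 against 582 and 589. Summed lymphocyte markers, mostly miR-150-5p, had 40580 and 64300 CPM against 102400 and 106400 CPM, as unscaled parts of the same counts as let-7. The part of names detected and marker levels in the let-7 difference was not tested.

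**Figure D4:**
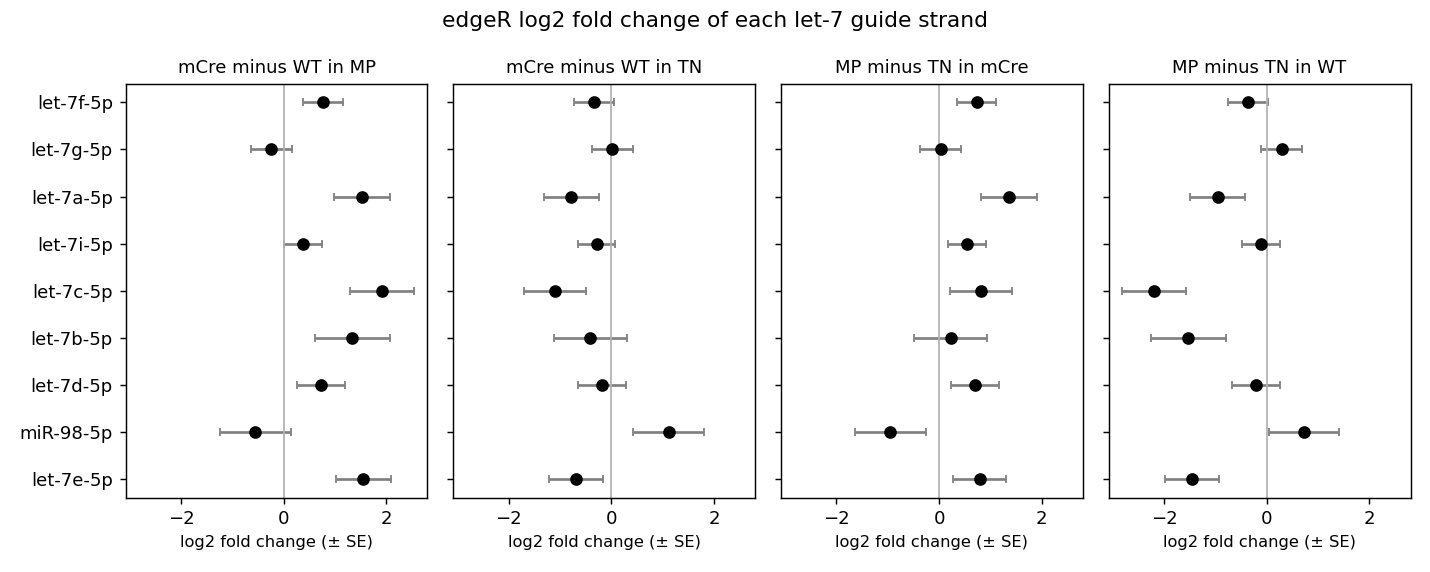
edgeR log2 fold change of each guide (points, with bars of 1 SE) for mCre minus WT in MP, mCre minus WT in TN, MP minus TN in mCre and MP minus TN in WT. The guides let-7a, let-7c and let-7e lie at 1.54, 1.92 and 1.56 in the left panel and on the negative side in the panels for TN and for WT, and no point passed an adjusted p under 0.05.

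mCre cells were then compared with WT cells within TN, where the miR-29 order of the libraries labelled replicate 2 was the reverse of that in MP. let-7c had 23992 and 22631 CPM in mCre TN against 21042 and 78548 CPM in WT TN, a log2 difference of −1.10 ± 0.60. The mCre TN values lay between the WT TN values. From the replicate 1 libraries alone the difference in let-7c was 0.09, with 1 library per group.

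miR-98 had 1334 and 4004 CPM in mCre TN against 1222 and 1231 CPM in WT TN, a log2 difference of 1.12 ± 0.69. let-7i had 28515 and 23963 CPM in mCre TN against 31127 and 32745 CPM in WT TN, a log2 difference of −0.28 ± 0.36. These were the 2 of 9 guides whose TN groups did not overlap, miR-98 with mCre higher and let-7i with mCre lower, against 22.5% of all miRNAs, 15.7% with mCre higher and 6.81% with mCre lower. With both TN replicate 2 libraries left out, the miR-98 difference was 0.02 and that of let-7i −0.23. edgeR called 0 of 9 guides and 0 of 382 miRNAs (0%), with adjusted p from 0.957 to 0.997, and DESeq2 called 0 of 382. At an unadjusted p under 0.05 edgeR had 0 of 9 guides against 3.14% of all miRNAs. The median log2 difference was −0.34 over the guides and 0.02 over all miRNAs, and 2 of 9 guides were above 0, against 6 of 9 without both TN replicate 2 libraries.

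MP cells were compared with TN cells within mCre, which asks how the subsets differ in that genotype. let-7a, at 194019 and 143461 CPM in mCre MP against 62829 and 68102 CPM in mCre TN, had the largest difference, a log2 value of 1.37 ± 0.54 (SE; adjusted p = 0.229 by edgeR). let-7f, at 306338 and 310359.9 CPM in mCre MP against 189405 and 182044 CPM in mCre TN, differed by 0.73 ± 0.39 (edgeR adjusted p = 0.279). 6 guides, let-7a, let-7c, let-7d, let-7e, let-7f and let-7i, were higher in both mCre MP than in both mCre TN libraries, while 65.2% of all miRNAs lacked overlap and 29.6% did so with MP higher.

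let-7c had 50511 and 31938 CPM in mCre MP against 23992 and 22631 CPM in mCre TN, a difference of 0.82 ± 0.60 on the log2 scale. let-7e had 433 and 358 CPM in mCre MP against 264 and 193 CPM in mCre TN, a difference of 0.79 ± 0.53. let-7d had 18788 and 19163 CPM in mCre MP against 10471 and 12921 CPM in mCre TN, a difference of 0.70 ± 0.47. The groups did not overlap in these 3 guides, but none passed the test. let-7i, at 35088 and 41578 CPM in mCre MP against 28515 and 23963 CPM in mCre TN, differed by 0.55 ± 0.36.

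let-7b had 31978 and 20499 CPM in mCre MP against 22616 and 22307 CPM in mCre TN, a difference of 0.22 ± 0.72 on the log2 scale that turned negative with total count scaling. let-7g had 78568 and 140560.2 CPM in mCre MP against 105951 and 108434 CPM in mCre TN, a difference of 0.03 ± 0.40 that also turned negative with total count scaling and without the low count filter. miR-98 had 1115 and 1649.7 CPM in mCre MP against 1334 and 4004 CPM in mCre TN, a difference of −0.95 ± 0.69 that became 0.13 when both TN replicate 2 libraries were left out. In these 3 guides the groups overlapped.

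edgeR called 0 of 9 guides and 0 of 382 miRNAs (0%) for MP against TN within mCre, and DESeq2 called 0 of 9 guides and 13.3% of the 330 miRNAs it gave an adjusted p. At an unadjusted p under 0.05 edgeR had let-7a alone among the 9 guides, against 21.5% of all miRNAs. The median log2 difference was 0.70 over the guides and −0.18 over all miRNAs. With total count scaling these medians were 0.40 and −0.49. The smallest adjusted p without both TN replicate 2 libraries was 0.0637, for let-7a, with a log2 difference of 1.51 ± 0.38 (SE, edgeR). let-7b then differed by 0.30, let-7c by 0.86, let-7d by 0.94, let-7e by 0.67, let-7f by 0.78, let-7g by 0.13 and let-7i by 0.51, each in the same direction as with all libraries. Without WT TN replicate 1 or without WT TN replicate 2, which enter this comparison only through the shared spread and scaling, edgeR called let-7a, at 1.37 and 1.45 on the log2 scale, with an adjusted p of 0.0391 and 0.0340 and against 13.4% and 13.1% of all miRNAs.

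MP cells were compared with TN cells within WT. let-7c had 10241 and 11556 CPM in WT MP against 21042 and 78548 CPM in WT TN, a log2 difference of −2.19 ± 0.62 (SE; adjusted p = 0.303 by edgeR). let-7e had 125 and 144 CPM in WT MP against 254 and 483 CPM in WT TN, a difference of −1.45 ± 0.53 (edgeR adjusted p = 0.447). Both WT MP libraries lay below both WT TN libraries in let-7c and let-7e, 2 of 9 guides, and 39.5% of all miRNAs lacked overlap, 13.4% with MP lower. let-7b had 9233 and 11488 CPM in WT MP against 8764 and 50858 CPM in WT TN, a difference of −1.53 ± 0.73, and the groups overlapped.

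let-7a had 49911 and 66545 CPM in WT MP against 53064 and 172721 CPM in WT TN, a difference of −0.96 ± 0.54 on the log2 scale. let-7f had 153809.5 and 209455 CPM in WT MP against 155697 and 313172 CPM in WT TN, a difference of −0.37 ± 0.38. let-7g had 119126 and 139096 CPM in WT MP against 129882 and 81363 CPM in WT TN, a difference of 0.29 ± 0.40 (edgeR adjusted p = 0.847). The groups overlapped in all 3. Among the WT libraries, the one labelled WT TN replicate 2 had the highest let-7a and let-7f and the lowest let-7g.

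edgeR called 0 of 9 guides and 0 of 382 miRNAs (0%) for MP against TN within WT, with 2 guides, let-7c and let-7e, and 8.12% of all miRNAs at an unadjusted p under 0.05. DESeq2 called let-7c, at −2.43 ± 0.73 on the log2 scale (SE, adjusted p = 0.0403), as 1 of 9 guides and against 3.41% of the 352 miRNAs it gave an adjusted p. The median log2 difference was −0.37 over the guides and 0.05 over all miRNAs. Without both TN replicate 2 libraries let-7c differed by −1.16 ± 0.38 and let-7e by −1.13 ± 0.37, let-7a by −0.08, while let-7b, let-7f and let-7g differed by 0.03, 0.01 and −0.22. Without WT TN replicate 1, which leaves the library labelled WT TN replicate 2 alone in its group, edgeR called let-7b and let-7c, against 1.57% of all miRNAs; that lone library is assumed to vary like the other groups.

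The difference between the genotype effects of the subsets, mCre minus WT in MP less mCre minus WT in TN, was tested as an interaction. It was 3.01 ± 0.86 on the log2 scale for let-7c, 2.32 ± 0.76 for let-7a and 2.24 ± 0.75 for let-7e (SE, edgeR adjusted p = 0.300 for each), 1.10 ± 0.54 for let-7f and −0.26 ± 0.57 for let-7g. edgeR called 0 of 9 guides and 0 of 382 miRNAs (0%), and at an unadjusted p under 0.05 it had 3 of 9 guides, let-7a, let-7c and let-7e, against 14.1% of all miRNAs. DESeq2 called let-7c, at 3.26 ± 1.03 (SE, adjusted p = 0.0487), against 4.97% of the 322 miRNAs it gave an adjusted p. Without WT TN replicate 1 edgeR called 5 of 9 guides, let-7a, let-7b, let-7c, let-7e and let-7f, against 16% of all miRNAs. Leaving out both TN replicate 2 libraries, it called none, with let-7c at 2.02 ± 0.56, let-7a at 1.59 ± 0.50, let-7e at 1.79 ± 0.55 and let-7f at 0.78 ± 0.45, and let-7g turned positive at 0.35. The median interaction was 1.10 over the guides and −0.22 over all miRNAs.

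Over both genotypes no let-7 guide passed the test between the subsets. MP minus TN lay between −0.69 and 0.24 on the log2 scale for the 9 guides, with edgeR adjusted p from 0.763 to 0.927. edgeR called 0 of 9 guides, against 9 of 382 miRNAs (2.36%), and DESeq2 0 of 9, against 7.95% of 352; at an unadjusted p under 0.05 edgeR had 0 of 9 guides against 13.1%. None of the 9 lacked overlap between the 4 MP and the 4 TN libraries, against 11.3% of all miRNAs. With both TN replicate 2 libraries left out, the differences lay between −0.32 and 0.64, with adjusted p from 0.248 to 0.925, and edgeR called 0 of 9 guides against 11.5% of all miRNAs. The sign then turned for 3 guides: let-7b was at 0.16, against −0.65 with all libraries, miR-98 at 0.31, against −0.11, and let-7g at −0.05, against 0.16. mCre minus WT over both subsets lay between −0.11 and 0.47, with an edgeR adjusted p of 0.992 for every guide. edgeR and DESeq2 each called 0 of 9 guides and 0 of 382 miRNAs (0%), and at an unadjusted p under 0.05 edgeR had 0 of 9 guides against 1.31%, and 0 of 9 lacked overlap, also against 1.31%. Without both TN replicate 2 libraries edgeR called let-7b, at 1.44 ± 0.31 (SE, adjusted p = 0.0313), against 6.54% of all miRNAs, and the 9 guides lay between −0.23 and 1.46. These contrasts share libraries with those within each genotype and subset.

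Each hairpin also gives a passenger strand, the -3p arm, which is usually degraded. Of 12 such names in the table, 8 were tested and 2, let-7a-2-3p and let-7c-1-3p, were listed at 0 in all libraries. let-7d-3p was by far the most counted, with 3413 to 40006 counts, and the others had at most 898. let-7d-5p exceeded let-7d-3p 2.29-fold and 2.94-fold in mCre MP against 1.47-fold and 2.86-fold in WT MP, and 1.58-fold and 10.9-fold in mCre TN against 1.73-fold and 2.25-fold in WT TN. The library labelled mCre TN replicate 2 thus stood apart in this ratio. let-7a-1-3p and let-7c-2-3p have 1 mature sequence and differed by at most 2 counts in a library. For mCre against WT in MP, 2 of the 8 tested passenger names were above 0 and 6 below. Their median log2 difference was −1.04, against 0.76 for the guides and −0.23 over all 382 miRNAs, of which 42.1% were above 0. let-7a-1-3p and let-7c-2-3p, being 1 sequence, count as 2 of the 6 below and set that median. edgeR called 0 of 8 passenger names and 0 of 382 miRNAs. With both TN replicate 2 libraries left out, 2 names were again above 0 and 6 below. The median, set by the same 2 names, was then −0.86, against −0.05 over all miRNAs, of which 47.6% were above 0. edgeR called let-7i-3p (adjusted p = 0.0424), as 1 of 8, against 10.2% of all miRNAs. let-7i-3p had 0 and 1 counts in mCre MP against 31 and 28 counts in WT MP.

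Of the names with a related sequence, let-7k and miR-1961 carry the same seed and were few in counts. They had 12 to 50 and 10 to 46 counts per library. let-7j, listed with 1774 to 6932 counts, is shown because it nearly repeats let-7i; the capital marks the base that differs.
let-7j: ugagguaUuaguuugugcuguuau
It differs from let-7i by G8U, inside the seed, and by 2 extra bases at the 3′ end. For every 100 let-7i counts it had 2.68 and 3.57 in mCre MP against 4.38 and 4.51 in WT MP, and 4.04 and 3.75 in mCre TN against 3.70 and 3.30 in WT TN. The lowest ratio was that of mCre MP replicate 1 and the highest that of WT MP replicate 2.

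miR-99a, miR-99b, miR-100, miR-125a and miR-125b are transcribed in mammals in clusters with let-7 hairpins, such as let-7e with miR-99b and miR-125a. Together they had 92.5 and 117 CPM in mCre MP against 396 and 362 CPM in mCre TN, and 134 and 144 CPM in WT MP against 338 and 376 CPM in WT TN. In this unscaled sum all 4 MP libraries were below all 4 TN libraries. Of single miRNAs, 11.3% lacked overlap between MP and TN. For MP against TN over both genotypes all 5 had a log2 difference below 0, with a median of −1.37, where the median over all 382 miRNAs was −0.04 and 49.5% were above 0, and edgeR called 0 of 5; the smallest adjusted p was 0.0693, for miR-99b-5p, at −1.54 ± 0.36 (SE). Without both TN replicate 2 libraries all 5 stayed below 0, with a median of −1.17. edgeR then called miR-99b-5p, at −1.56 ± 0.32 (SE, adjusted p = 0.01098), as 1 of 5. Of all 382 miRNAs it called 11.5% in that setting and 2.36% with all libraries. The sum is carried by miR-99b and miR-125a. Within WT alone, 1 of the 5 ran the other way: miR-100-5p had 16 and 14 counts in WT MP against 4 and 0 counts in WT TN. miR-125b-5p differed there by −0.25 ± 0.82. let-7e, the cluster partner of miR-99b and miR-125a, overlapped between MP and TN, and so did every other let-7 guide.

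Among 117 other miRNAs with a mean of at least 100 CPM, the 5 closest to let-7f in pattern over the 8 libraries were miR-25-5p, miR-7a-5p, miR-501-3p, miR-30b-3p and miR-378c. Their centred log2 CPM differed from that of let-7f by a root mean square of 0.194, 0.268, 0.272, 0.305 and 0.333. The same 5 were the closest to the summed family, at 0.229, 0.249, 0.266, 0.312 and 0.277. miR-25-5p ranged from 66.7 to 209.3 CPM and miR-7a-5p from 13850 to 23090 CPM. The likeness describes 8 libraries that share their scaling factors.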

How the data were processed

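Small RNA was sequenced from sorted spleen CD8+ T cells in 8 libraries. The authors deposited expected counts, 1 row per mature miRNA and precursor (2128 rows, 1978 names, 85 of them in several rows). Values were whole (tolerance 0.011) in 82.8% of cases for 1-row names and in 15.8% for names with several rows, as if a read matching several rows had been divided between them. The build was mm10, per the submitters' processing notes; aligner and counter: not given in the sources used here. Rows of one name were summed and rounded to whole counts. edgeR 4.0.16 in R 4.3.3 filtered names (filterByExpr, minimum count 10, minimum total 15; 382 left), scaled by TMM and tested with robust quasi-likelihood fits and Benjamini-Hochberg adjustment at 0.05: 1 fit of the 4 groups for contrasts within a genotype or subset and the interaction, and an additive fit of subset and genotype for contrasts over both. SE was taken as the absolute log2 fold change over the root of F. DESeq2 1.42.0 was an alternative. Shares, and CPM summed over a list, are unscaled. Intervals of shares are 95% Wilson intervals. Totals of 1936597 to 5230975 counts leave little counting error for the guides, and reads carry no molecular identifiers used here. The code was tested on simulated data. All 9 guides are named; neighbours in pattern are the 5 other tested miRNAs with at least 100 CPM and the smallest root mean square difference of centred log2 CPM (prior count 2). The guides and lists were chosen with earlier results of these data known.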

Additional observations from a re-analysis of the deposited data

Results flagged for a closer look

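Among 76 sets of 4 libraries of one genotype or one subset, 11 held a value that stood apart from the other 3 by Dixon's test at 95%; chance gives about 1 in 20. Sets share libraries, and CPM and parts of the family come from the same counts. The 11 are thus not independent and cannot be weighed against 1 in 20. The library labelled WT TN replicate 2 gave 9 of the 11. Its let-7a level of 172721 CPM lay above the other TN libraries (53064 to 68102 CPM) and the other WT libraries (49911 to 66545 CPM). Its let-7b level of 50858 CPM lay above the other WT libraries (8764 to 11488 CPM). Its let-7c level of 78548 CPM lay above the other TN libraries (21042 to 23992 CPM) and the other WT libraries (10241 to 21042 CPM). In parts of the family, this library had 23.1% let-7a (12.96% to 13.65% in the other WT libraries), 6.79% let-7b (2.14% to 2.43%) and 10.9% let-7g (28.5% to 31.7%), and 10.5% let-7c against 5.09% to 5.39% in the other TN libraries.

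miR-98 gave the other 2. It had 4004 CPM in the library labelled mCre TN replicate 2, against 1222 to 1334 CPM in the other TN libraries, and 2844 CPM in WT MP replicate 2, against 1207 to 1231 CPM in the other WT libraries.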

How the results depend on the processing

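Alternatives were RLE size factors, total count scaling, TMM without the let-7 guides, no low count filter, DESeq2, a replicate block, fits that were not robust, and leaving out each library or both TN replicate 2 libraries. The number of guides called was 0 in each comparison. It was 1 with DESeq2 for MP minus TN in WT and for the interaction, and without both TN replicate 2 libraries 4 for mCre minus WT in MP and 1 for mCre minus WT over both subsets. Leaving out 1 library gave 0 to 2 guides for MP minus TN in WT, 0 to 1 for MP minus TN in mCre and 0 to 5 for the interaction. MP minus TN over both genotypes and mCre minus WT in TN called 0 guides in every setting. Over all 382 miRNAs, or those each setting tested, the calls ran from 0 to 48 for MP minus TN over both genotypes (9 as reported), 0 to 12 in WT, 0 to 51 in mCre, 0 to 25 for mCre minus WT over both subsets, 0 to 1 in TN, 0 to 39 in MP and 0 to 61 for the interaction (0 as reported in these 6). The cause was not tested.

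Directions turned in some settings, on the log2 scale. Without both TN replicate 2 libraries, MP minus TN in WT was 0.03 for let-7b, 0.009 for let-7f and −0.22 for let-7g, MP minus TN in mCre was 0.13 for miR-98, mCre minus WT in TN was 0.086 for let-7c, and the interaction was 0.35 for let-7g. Total count scaling gave −0.082 for let-7b and −0.29 for let-7g in MP minus TN in mCre, and no filter gave −0.14 for let-7g. Leaving out 1 library at a time, MP minus TN in WT ran from −2.30 to 0.03 for let-7b, −0.79 to 0.009 for let-7f and −0.22 to 0.67 for let-7g. MP minus TN in mCre ran from −0.056 to 0.59 for let-7b, −0.36 to 0.47 for let-7g and −1.54 to 0.13 for miR-98. mCre minus WT in TN ran from −1.75 to 0.045 for let-7c and −0.048 to 1.71 for miR-98, mCre minus WT in MP from −0.53 to 0.31 for let-7g and −1.04 to 0.20 for miR-98, and the interaction from −0.64 to 0.44 for let-7g.

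With the replicate block 0 of 9 guides were called in every comparison, and over both genotypes 2 of 382 miRNAs separated MP from TN, against 9 without it. Deviations of same-numbered libraries correlated from −0.32 to 0.407 over 382 miRNAs, so the numbers were not taken as pairs. With the numbers of the WT TN libraries exchanged, added after seeing the data, the block called 0 guides and 0 miRNAs for mCre minus WT in TN.

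If reads were counted in full in each precursor row, the highest row per name applies; the family share is then 52.7% in mCre MP, 38.4% in WT MP, 41.5% in mCre TN and 53.3% in WT TN. In that setting 29 group means of a guide's part of the family and 3 of the family share moved beyond the replicate SD. let-7a, let-7c and let-7f would keep 1 of 2 nearly equal rows, and the other guides all counts. let-7f, at 17.27% against 13.38% in WT MP replicate 1, would fall below let-7g. So would let-7a in mCre MP replicate 2, at 12.03% against 11.78%. The first place of let-7f and the order of the guides thus depend on the counting. Rounding and further names with the seed moved no group share beyond its replicate spread. Counting error is small for the guides beside the spread between replicates.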
